A study of Mus musculus with 18 samples.

Results

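Pre-mRNA splicing factors were examined in perigonadal white adipose tissue of mice. The 67 genes were those annotated as protein-coding whose symbol begins with Srsf, Hnrnp, Sf3a, Sf3b, Snrp, U2af or Prpf, out of 16272 genes of all types that passed the authors' filter on low expression. Their names and annotation chose them among the genes past that filter, and no difference between groups was used. RefSeq annotates 69 protein-coding genes with such names, so 2 (*Srsf12* and *Hnrnpa1l2-ps2*) were not listed among the tested genes.

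The tissue came from female C57BL/6J mice (labelled C57b/6J wild-type) of one starting age that were housed singly with a running wheel. There were 18 libraries, 6 from control mice fed ad libitum (CON), 6 from mice in activity-based anorexia (ABA), in which shrinking daily feeding windows with access to a wheel bring about weight loss, and 6 from weight-restored mice (WR), which were refed ad libitum after the same loss. As a model, ABA combines food restriction and running, and the whole fat pad was sequenced, so all of its cell types contribute RNA. The value analysed is the authors' mean of log2 CPM, read counts scaled to the size of each library, of each gene over all 18 libraries. One mean is given per gene, so it holds all 3 groups together, has no spread over mice, and allows no test between CON, ABA and WR, and these groups were not compared here. The paper gives only an approximate depth per sample, so the exact number of reads behind each mean is unknown.

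Splicing removes introns from nuclear transcripts. Small nuclear ribonucleoproteins (snRNPs) recognise the ends and the branch site of an intron and assemble into the spliceosome. SR proteins and heterogeneous nuclear ribonucleoproteins (hnRNPs) bind exons and introns and often act in opposite ways on the choice of a splice site. In bulk tissue, fewer cells of a type and less RNA per cell cannot be told apart.

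The labelled tissue was checked first. Of 8 adipocyte markers, 7 stood above the 90th percentile of tested protein-coding genes by level per kilobase, such as the fatty acid carrier *Fabp4* with a mean log2 CPM of 12.36 and *Adipoq*, which encodes adiponectin, with 10.86. Leptin (*Lep*) had a mean log2 CPM of 5.99. Markers of other cells were also present, for example *Pecam1* of endothelium (mean log2 CPM 7.17), *Pdgfra* of fibroblasts (7.21), *Mrc1* of macrophages (6.99) and *Upk3b* of mesothelium (7.18). Per kilobase, *Mrc1* stood at the 84.9th and *Upk3b* at the 92.0th percentile, but *Adgre1* of macrophages at the 55.5th and *Msln* of mesothelium at the 72.9th. The liver gene *Alb* had a mean log2 CPM of 5.13, at the 78.2nd percentile, and the skeletal muscle gene *Ckm* 2.15, at the 19.0th. How much RNA of each cell type contributes to the members' levels was not tested. The neuronal gene *Snap25* had a mean log2 CPM of 0.25, and the neuronal genes *Rbfox3* and *Tubb3* were not listed.

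Promoters of 58 of the 67 members could be matched to RefSeq (GRCm38.p6), with 79 windows of 300 bases that lie mostly upstream of an annotated start and reach a little past it. Capitals mark short motifs that were searched on both strands. They are the GC box (GGGCGG), the CCAAT box (CCAAT), the ETS-type CCGGAAG, the TATA box (TATAAA) and the YY1-type AAGATGG. GC boxes and ETS-type motifs can overlap, and an ETS-type motif can overlap its own reverse. Windows are shown for *Srsf5* and *Prpf8*, which had the highest member levels with and without scaling by length. Those of *Prpf4*, which had the lowest level per kilobase, and of *Sf3b6* are also shown. *Sf3b6* encodes a small branch-site subunit, and its window has a pair of ETS-type motifs.

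*Srsf5*, chr12:80945249-80945548, plus strand: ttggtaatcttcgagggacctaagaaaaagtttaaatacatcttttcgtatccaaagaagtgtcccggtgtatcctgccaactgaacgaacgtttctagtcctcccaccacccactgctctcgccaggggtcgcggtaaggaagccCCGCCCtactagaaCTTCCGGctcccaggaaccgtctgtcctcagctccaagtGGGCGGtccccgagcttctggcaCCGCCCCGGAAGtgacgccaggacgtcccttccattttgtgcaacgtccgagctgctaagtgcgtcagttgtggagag

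*Prpf8*, chr11:75486527-75486826, plus strand: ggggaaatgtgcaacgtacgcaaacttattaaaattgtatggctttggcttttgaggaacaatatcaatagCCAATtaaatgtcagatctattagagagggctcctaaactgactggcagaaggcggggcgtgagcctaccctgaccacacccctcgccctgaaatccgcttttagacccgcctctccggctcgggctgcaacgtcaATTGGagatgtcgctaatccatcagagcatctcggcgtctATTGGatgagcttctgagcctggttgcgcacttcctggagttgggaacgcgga

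*Sf3b6*, chr12:4817358-4817657, plus strand: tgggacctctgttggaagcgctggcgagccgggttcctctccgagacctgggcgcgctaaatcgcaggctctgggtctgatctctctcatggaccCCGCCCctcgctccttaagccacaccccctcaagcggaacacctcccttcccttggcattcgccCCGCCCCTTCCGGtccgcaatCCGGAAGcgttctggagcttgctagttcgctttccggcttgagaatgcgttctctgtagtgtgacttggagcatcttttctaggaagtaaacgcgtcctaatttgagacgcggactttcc

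*Prpf4*, chr4:62408533-62408832, plus strand: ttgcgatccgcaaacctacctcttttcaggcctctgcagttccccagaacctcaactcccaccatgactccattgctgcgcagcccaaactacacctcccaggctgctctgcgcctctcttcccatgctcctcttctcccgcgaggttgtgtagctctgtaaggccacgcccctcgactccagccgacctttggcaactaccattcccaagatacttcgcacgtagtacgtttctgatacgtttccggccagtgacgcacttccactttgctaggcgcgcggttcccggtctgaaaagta

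The *Srsf5* window held 3 GC boxes and 2 ETS-type motifs, 1 of which overlaps a GC box by its letters. The *Prpf8* window held 3 CCAAT boxes, and the *Prpf4* window held none of the motifs. Over all 79 member windows, the ETS-type motif was in 25 (31.6%), compared with 11.6% of 21263 windows of 17492 RefSeq protein-coding genes. This background was not limited to the tested genes, while all members had passed the filter on low expression. Whether the differences from it are particular to splicing factors was not tested. GC boxes were in 63.3% of member windows and 46.2% of all windows, CCAAT boxes in 48.1% and 38.2%, TATA boxes in 8.86% and 12.6%, and the YY1-type motif in 3.80% and 6.24%. The median GC content was 60% in member windows and 56.3% in all windows, and the observed-to-expected ratio of CpG was 0.921 and 0.567 at the median. Some windows of 1 gene overlap each other. A match of letters is a description and not a binding site.

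Most splicing factors lay above the middle of tested genes in this tissue. On the log2 CPM scale, the 67 members ran from 2.87 (*Snrpf*, a protein of the Sm ring) to 8.55 (*Prpf8*, the central scaffold of the spliceosome), with a median of 5.86. The median of 13551 tested protein-coding genes with an annotated length was 4.32, and 46 of the 67 members lay above it. As geometric means, 15 members exceeded 100 CPM. The share of all tested genes above 100 CPM was not counted, and the 90th percentile of tested protein-coding genes was a mean log2 CPM of 6.83. The members made up 0.412% of tested genes and 0.541% of their summed geometric mean CPM, and the 10 most abundant members held 45.5% of the members' sum.

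Longer transcripts give more reads, so genes were compared per kilobase of their longest coding transcript. On this scale 60 of 67 members lay above the median of tested protein-coding genes, 37 lay above the 75th percentile, 18 above the 90th and 7 below the median. The median member stood at the 77.1st percentile. Among the members, Spearman's rho between transcript length and mean log2 CPM was 0.50 (n = 67 genes), and it was -0.02 after scaling by length. Over all 13551 genes the same values were 0.26 and -0.14. Genes are not independent replicates, and these are descriptions.

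**Figure D1:**
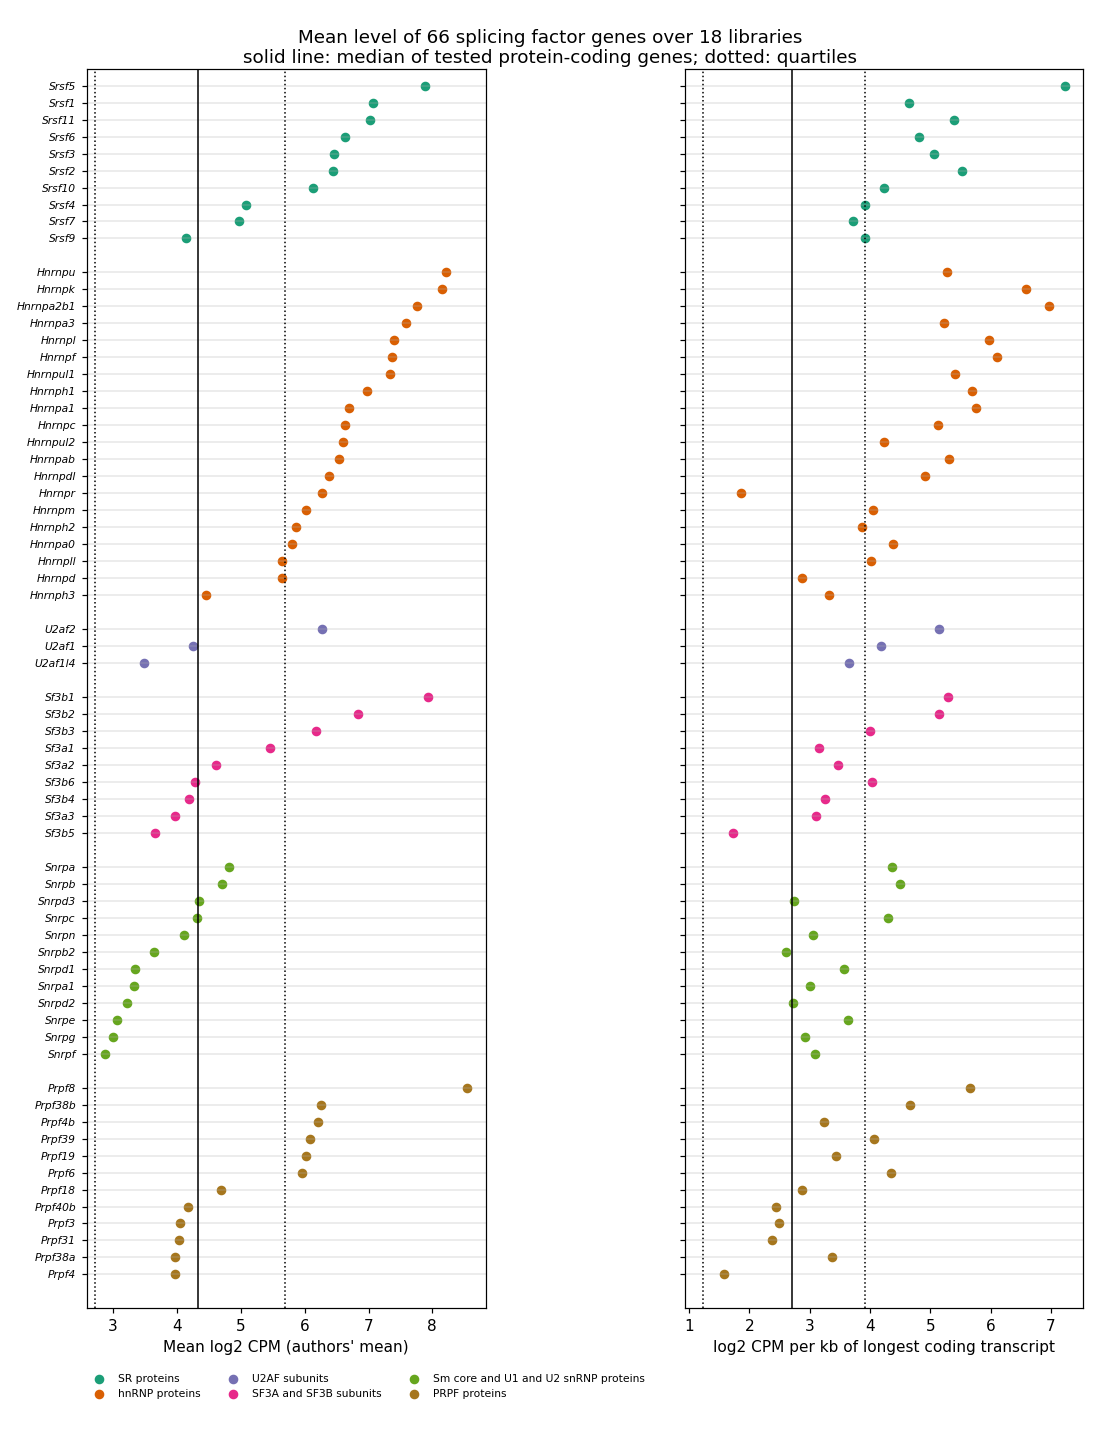
Authors' mean log2 CPM (left) and log2 CPM per kilobase of the longest coding transcript (right) of 66 members, 1 point per gene, coloured by role. Solid and dotted lines give the median and quartiles of tested protein-coding genes, and 59 of the genes shown lie to the right of the solid line on the per-kilobase scale.

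SR proteins carry RNA recognition motifs and a domain rich in arginine and serine, and bind exonic enhancers. All 10 listed members lay above the median of tested genes per kilobase and 8 lay above the 75th percentile. *Srsf5* (ENSMUSG00000021134) had the highest level of any member, 7.24 log2 CPM per kilobase, at the 98.5th percentile, with a mean log2 CPM of 7.89. *Srsf2*, *Srsf11* and *Srsf3* followed with 5.52, 5.39 and 5.07 log2 CPM per kilobase. *Srsf7*, a relative of *Srsf3* that carries a zinc knuckle, had the lowest level of the SR genes on this scale with 3.71. By coding length, and by the median length of the transcripts in GENCODE's basic set, *Srsf4* was lowest, and without scaling *Srsf9*. The order behind *Srsf5* also changed with the length used. By coding length *Srsf3* (7.48) and *Srsf1* (7.47) came next, and by basic length *Srsf2* (5.76) and *Srsf6* (5.61). *Srsf3* exceeded *Srsf7* 2.56-fold per kilobase, 4.04-fold by coding length and 1.77-fold by basic length. *Srsf4* stood at 3.91, a gap of 3.33 on the log2 scale from *Srsf5*. *Srsf1*, the founding member of the family, had 4.65 log2 CPM per kilobase and *Srsf9*, a close relative, 3.92. This gap of 1.66-fold widened to 6.71-fold by coding length and 3.01-fold by basic length.

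The 20 hnRNP genes had the highest median of the 6 role groups, at the 90.7th percentile, and 16 of them lay above the 75th percentile. Per kilobase of coding length the SR median was higher, at 90.5 against 88.2 for hnRNP genes. hnRNPs coat nascent transcripts, and many can repress nearby splice sites. *Hnrnpa2b1* led with 6.97 log2 CPM per kilobase, followed by *Hnrnpk*, which binds runs of cytosine, with 6.58, *Hnrnpf*, which binds runs of guanine, with 6.10, and *Hnrnpl*, which binds CA-rich RNA, with 5.97. These 4 genes stood between the 95.4th and the 98.1st percentile. *Hnrnpa2b1* also led by basic and coding length, but the order behind it changed. *Hnrnpa3*, at 5.22 here, exceeded *Hnrnpk* by basic length (6.86 against 6.74) and *Hnrnpf* by coding length (7.40 against 7.04). By coding length *Hnrnpl* was at the 90.3rd percentile. Without scaling by length, *Hnrnpu*, which binds chromatin and nuclear RNA, was the most abundant hnRNP gene with a mean log2 CPM of 8.21.

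Close relatives among hnRNPs differed in level. *Hnrnpl* exceeded *Hnrnpll*, known for regulating splicing in activated lymphocytes, 3.90-fold per kilobase. *Hnrnpa2b1* exceeded *Hnrnpa1* 2.33-fold, and *Hnrnph1* exceeded *Hnrnph3* 5.21-fold. *Hnrnph1* exceeded *Hnrnph2* 3.56-fold, but 2.06-fold by coding length and 2.30-fold by basic length. *Hnrnpr* had the lowest level of the group on this scale, 1.85 log2 CPM per kilobase, but this value rests on an annotated transcript of 21452 bases. With the median length of its basic transcripts (2665 bases) it was 4.86, at the 85.1st percentile. *Hnrnpd*, an AU-rich element binding protein also known as AUF1, likewise moved from 2.87 to 4.76. On the other scales *Hnrnph3* was the lowest hnRNP gene, with 4.41 by coding length, 3.34 by basic length and a mean log2 CPM of 4.46. Reads of hnRNP genes can be shared with pseudogene copies, and RSEM divides them by estimate.

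U2AF marks the end of the intron for the U2 snRNP. *U2af2*, the large subunit that binds the polypyrimidine tract, had 5.15 log2 CPM per kilobase, and *U2af1*, the small subunit that contacts the terminal AG, had 4.19, a gap of 1.95-fold. *U2af1l4*, a shorter relative of the small subunit, was at 3.66, 1.45-fold below *U2af1*. The 3 genes stood between the 70.2nd and the 90.5th percentile. By coding length *U2af1* was at the 67.8th and *U2af1l4* at the 55.0th percentile, and by basic length *U2af1l4* was at the 69.8th.

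SF3A and SF3B are parts of the U2 snRNP that clamp the branch site. *Sf3b1* (ENSMUSG00000025982), the branch-site clamp itself, was the highest of the 9 genes with 5.30 log2 CPM per kilobase and a mean log2 CPM of 7.93, and *Sf3b2* followed with 5.14. The 3 SF3A genes ran from 3.10 (*Sf3a3*) to 3.47 (*Sf3a2*), a 1.29-fold range. The range was 1.78-fold by coding length, with *Sf3a1* highest, 1.91-fold by basic length and 2.81-fold without scaling. The 6 SF3B genes spanned 11.9-fold, with *Sf3b5*, which encodes one of the smallest subunits, lowest at 1.72. *Sf3b5* has 1 exon and an annotated transcript of 3841 bases with a coding length of 258 bases. Per kilobase of coding length it stood at 5.62 and the SF3B range was 4.34-fold, with *Sf3b4* lowest.

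**Figure D2:**
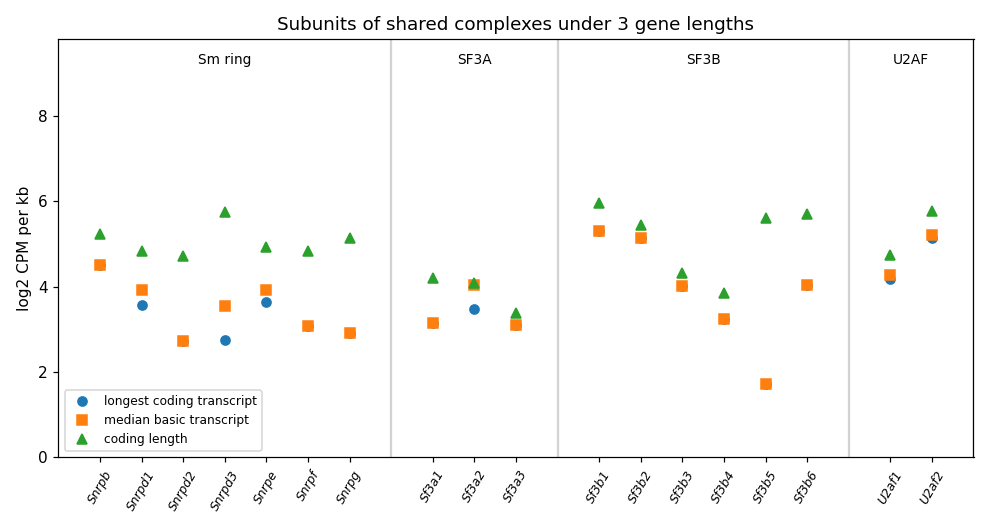
Levels per kilobase (log2 CPM per kb) of the subunits of the Sm ring, SF3A, SF3B and U2AF, with circles for the longest coding transcript, squares for the median basic transcript and triangles for the coding length. A circle is hidden where the square has the same value. *Sf3b5* and *Snrpd3* move most with the length used, *Sf3b5* from 1.72 to 5.62 and *Snrpd3* from 2.74 to 5.75.

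Snrp genes encode the ring of Sm proteins, shared by the U1, U2, U4 and U5 snRNPs, and proteins particular to U1 or U2. Their mRNAs are short, with a median of 1205 bases for the longest coding transcript compared with 3203 bases for tested genes. The median of the 12 genes was at the 35.6th percentile on the log2 CPM scale and at the 57.9th percentile per kilobase. In the ring of 7 Sm proteins, *Snrpb* was highest with 4.49 log2 CPM per kilobase, and *Snrpd2* was lowest with 2.72, a 3.43-fold range. Per kilobase of coding length *Snrpd3* was highest and the range was 2.04-fold. *Snrpa* and *Snrpc*, both proteins of the U1 snRNP, were at 4.36 and 4.30. *Snrpa1* exceeded *Snrpb2*, its partner in the U2 snRNP, 1.32-fold per kilobase. The order within both pairs turned with the coding length, by which *Snrpc* exceeded *Snrpa* 1.12-fold and *Snrpb2* exceeded *Snrpa1* 1.41-fold. *Snrpn*, an imprinted relative of *Snrpb* that is most active in brain and heart, was at 3.05. *Snrpb* exceeded it 2.72-fold per kilobase and 1.58-fold by coding length. Its reads may be shared with those of *Snrpb* and of the transcripts that overlap it.

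PRPF proteins act across the cycle of the spliceosome, and their levels spread widely. *Prpf8* (ENSMUSG00000020850) stood at 5.65 log2 CPM per kilobase, at the 93.8th percentile. Among the other PRPF proteins of the U4/U6.U5 tri-snRNP, *Prpf6*, which bridges U5 and U4/U6, was at 4.34, *Prpf3* at 2.49 and *Prpf31* at 2.38. *Prpf4*, at 1.58, had the lowest level of any member on this scale. By coding length *Prpf40b* was lowest. The gap from *Prpf8* to *Prpf4* was 16.9-fold per kilobase and 6.66-fold from *Prpf8* to the lowest of these genes, *Prpf3*, per kilobase of coding length. *Prpf19*, a ubiquitin ligase of the complex that activates the spliceosome, was at 3.43, and *Prpf4b*, a kinase of the tri-snRNP, at 3.23. The group median was at the 62.3rd percentile, and 4 of 13 genes were above the 75th percentile.

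**Figure D3:**
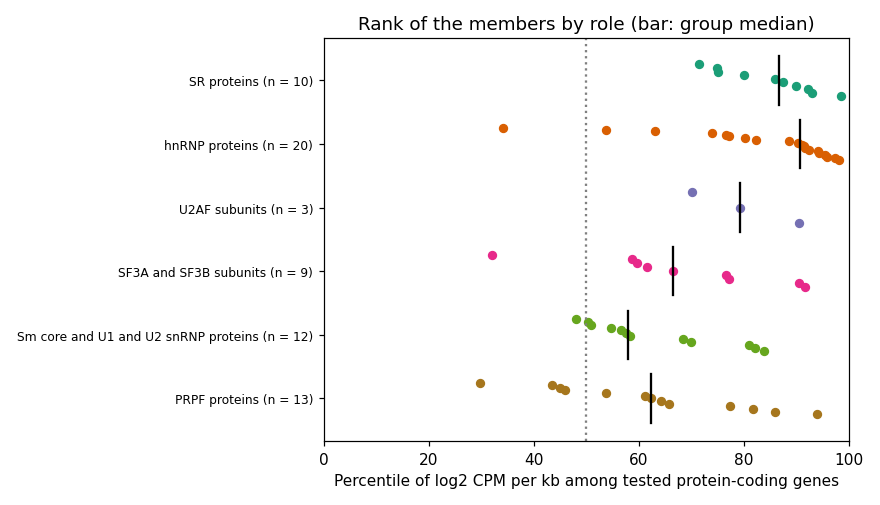
Percentile of each member by log2 CPM per kilobase among tested protein-coding genes, by role, with a bar at each group median and a dotted line at the 50th percentile. Points are offset vertically for legibility only. The group medians run from 57.9 for Snrp genes to 90.7 for hnRNP genes.

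The side of the median on which a member stood mostly held across definitions of length, while the order among members changed. With the longest coding transcript, the median basic transcript and the coding length, 57 members stood above the median of tested genes under each of the 3 definitions. Above the 90th percentile under each definition were 10 members, *Srsf5*, *Srsf2*, *Hnrnpa2b1*, *Hnrnpk*, *Hnrnpf*, *Hnrnpl*, *Hnrnpa1*, *Hnrnph1*, *Hnrnpab* and *Hnrnpa3*, compared with 18 members for the longest coding transcript alone. The members below the median under each definition were 4 PRPF genes, *Prpf3*, *Prpf4*, *Prpf31* and *Prpf40b*.

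The members had a median of 6 annotated transcripts, compared with 5 for tested protein-coding genes. Group medians ran from 4 for SF3A and SF3B genes to 9 for U2AF genes. Some transcripts are marked for nonsense-mediated decay, a pathway that destroys mRNAs with an early stop codon. In GENCODE M21, 34 of 67 members (50.7%) had at least 1 such transcript, compared with 27.9% of tested protein-coding genes. The share was 9 of 10 for SR genes, 10 of 20 for hnRNP genes, 3 of 3 for U2AF genes, 7 of 13 for PRPF genes, 4 of 12 for Snrp genes and 1 of 9 for SF3A and SF3B genes. *Srsf10* was the SR gene with none. *U2af1l4* had the most of any member, 8 of its 34 annotated transcripts. Transcripts with a retained intron were annotated for 74.6% of members and 57.3% of tested genes. These counts describe the annotation and not the tissue, since no value per isoform was analysed here.

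Of 84 other splicing genes on a list chosen for their roles, 81 were among the tested genes, under 82 gene identifiers. By level per kilobase, 61 of the 82 lay above the median and 33 above the 75th percentile, with a median at the 69.6th percentile. The highest were *Mbnl1*, a muscleblind splicing regulator, with 6.43 log2 CPM per kilobase, *Srrm2*, a scaffold of nuclear speckles, with 6.33, and *Clk1*, a kinase of SR proteins, with 6.20. The lowest were *Esrp2*, an epithelial splicing regulator, with -0.74, *Mbnl3* with 0.84 and *Snrnp25*, a protein of the minor spliceosome, with 0.90. Except for *Esrp2*, which stayed lowest, these places depended on the length used. By basic length *Celf2* (6.91) exceeded *Mbnl1* (6.74), and *Ptbp3* (6.51) and *Luc7l2* (6.41) exceeded *Srrm2* (6.36) and *Clk1* (6.20). *Mbnl3* was at 2.04 by basic length and 3.02 by coding length.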

How the data were processed

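Total RNA of perigonadal fat was sequenced by the authors from TruSeq libraries. According to the study's methods, with tool versions from the submitters' processing notes, the authors used FastQC 0.11.8, Trimmomatic 0.38, STAR 2.5.1a on GRCm38.p6 and RSEM 1.3.0, filtered genes by CPM, scaled by TMM and fitted limma-voom. The strand setting is not given in the sources used here. The deposited tables hold the authors' mean log2 CPM per gene and the authors' own comparisons of groups (log2 fold changes, moderated t and p-values). The comparison columns were not used. The mean was identical in the joined tables (largest difference 0).

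The level per kilobase is the deposited mean log2 CPM minus log2 of the transcript length in kilobases, without correction for fragment length. Lengths are those of the longest coding transcript in GENCODE M21 (GRCm38), matched by Ensembl identifier. The paper names an Ensembl annotation release for its read counts, and the transcripts of that release were not compared with those of GENCODE M21. Percentiles are among 13551 protein-coding genes. Python 3.11.15, pandas 2.3.3 and scipy 1.17.1 were used. The arithmetic of the scaling and ranking was checked on simulated levels with known lengths. That check cannot show whether the scaling by length suits these data. The members and lists were chosen with earlier results of these data known. One member is counted in the totals but not reported by name here. Always named were the highest and lowest gene of each role group, and of the other splicing genes the 3 highest and 3 lowest. Alternatives were the coding length, no scaling, all gene types, a mean log2 CPM of at least 0 and, added after seeing the data, the median basic transcript length.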

Additional observations from a re-analysis of the deposited data

How the results depend on the processing

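Of the members, 60 lay above the median per kilobase, 46 without scaling by length and 64 among all gene types. Above the 75th percentile were 37, 35 and 40 in the same order. Counts under the other alternatives lay between these, and all stayed within 1.5 times of the per-kilobase count. The median percentile of the members was 78.2 with the coding length, 77.5 without scaling, 80.3 among all gene types, 76.4 among genes with a mean log2 CPM of at least 0 and 76.8 with the median basic transcript length. With the coding length, the group medians were 90.5 for SR, 88.2 for hnRNP, 59.8 for SF3A and SF3B, 70.5 for Snrp, 67.8 for U2AF and 65.4 for PRPF genes. Without scaling by length they were 85.8, 87.7, 55.5, 35.6, 48.8 and 79.0 in the same order, and with the median basic transcript length 89.0, 89.1, 72.1, 58.5, 76.8 and 59.4. SR and hnRNP genes thus had the 2 highest medians under each of these lengths, while the order of the other groups depended on the scale. Of the 10 members with the highest level per kilobase, 5 were shared with the coding length, 7 without scaling and 9 with the median basic transcript length. No paired analysis was possible because the values are means over all libraries and no test was made. For the same reason no library could be left out, and the spread between mice and the depth of each library limit these values to an unknown extent.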
